A study of Homo sapiens with 4 samples.

Results

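The genes described here encode 52 transcription factors of the basic helix-loop-helix (bHLH) family, out of 20033 protein-coding genes of GENCODE release 44. The members were given as a list of names and all 52 were found in the annotation: 3 E proteins, 4 achaete-scute factors, 4 myogenic factors, 10 neurogenic and atonal factors, 5 factors of the HAND, TAL and LYL group, 3 of the OLIG and PTF1A group, 9 HES and HEY repressors, BHLHE40 and BHLHE41, 6 genes of the MAX network, 2 USF genes and 4 MiT/TFE genes. The measurement was the position of Smad2 and Smad3 binding around these genes. Anti-GFP ChIP-seq was carried out in MDA-MB-231 cells, which come from a human breast cancer, and in which a bacterial artificial chromosome (BAC) supplied Smad2 or Smad3 fused at its C-terminus to the GFP-containing LAP tag, under the control elements of the gene itself. The cells were stable transfectants sorted for GFP as a population, and they kept their own untagged Smads. Each line was either left untreated or given 10 ng/mL TGFβ-1 for 2 h, so that there were 4 conditions with 1 library each. Conditions therefore cannot be compared against a spread between replicates, and no such test was run.

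The authors' peak lists held 11266 peaks for the library labelled LAP-Smad2 untreated, 3511 for the library labelled LAP-Smad3 untreated, 26828 for LAP-Smad2 with TGFβ-1 and 62551 for LAP-Smad3 with TGFβ-1. Read totals are unknown beyond a minimum, and a list can be longer because its library was deeper. For the untreated pair, the sample titles and the names of the deposited lists gave opposite Smads. Within 100 kb of SMAD2, which the BAC of the LAP-Smad2 line carries, the lists in the order above held 2, 20, 27 and 4 peaks, and within 100 kb of SMAD3 they held 0, 1, 1 and 53. The TGFβ-1 lists were thus dense at the gene their label names, whereas the library labelled LAP-Smad3 untreated was dense at SMAD2. No direction is drawn from the untreated pair, and both are called by their labels.

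Factors of the bHLH family bind DNA as dimers at the E-box, a 6-base site that reads CANNTG. E proteins such as TCF3 pair with tissue-restricted partners of the achaete-scute, myogenic and neurogenic groups, often at the form CAGCTG, whereas MAX, USF and MiT/TFE factors favour CACGTG. HES, HEY and BHLHE40 proteins are repressors that act downstream of Notch or of other signals. Smads carry the TGFβ signal to the nucleus, recognise short sites such as CAGAC or GC-rich sequence, and take much of their cell type specificity from partner factors, among which bHLH proteins such as TFE3 and the E proteins are known.

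The sequences that the results turn on are 200 bp windows on the centre of a peak, read from the + strand of hg38. The first set lies at TFEB, ATOH8 and TCF3, the members with most LAP-Smad3 peaks. The ATOH8 and TFEB windows are given because they ranked high in their own TGFβ-1 list, and the TCF3 window because it holds CAGCTG. Capitals mark each CANNTG. They are, in order, an ATOH8 window upstream of the gene from the LAP-Smad2 list (chr2:85741840-85742039), a TFEB promoter window (chr6:41706585-41706784) and a window downstream of TFEB (chr6:41682189-41682388) from the LAP-Smad3 list, and an intronic TCF3 window of the same list (chr19:1629304-1629503).

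ATOH8 upstream: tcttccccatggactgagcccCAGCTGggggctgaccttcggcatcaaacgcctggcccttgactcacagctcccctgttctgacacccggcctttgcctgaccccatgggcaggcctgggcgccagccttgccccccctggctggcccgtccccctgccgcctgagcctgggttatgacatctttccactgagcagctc
TFEB promoter: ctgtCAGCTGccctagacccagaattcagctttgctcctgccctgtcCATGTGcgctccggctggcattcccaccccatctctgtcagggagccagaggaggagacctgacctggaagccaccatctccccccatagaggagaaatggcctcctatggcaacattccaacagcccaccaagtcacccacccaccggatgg
TFEB downstream: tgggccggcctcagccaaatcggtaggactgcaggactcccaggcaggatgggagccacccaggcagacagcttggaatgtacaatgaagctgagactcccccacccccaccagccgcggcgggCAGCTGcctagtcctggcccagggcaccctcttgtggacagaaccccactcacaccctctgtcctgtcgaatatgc
TCF3 intron: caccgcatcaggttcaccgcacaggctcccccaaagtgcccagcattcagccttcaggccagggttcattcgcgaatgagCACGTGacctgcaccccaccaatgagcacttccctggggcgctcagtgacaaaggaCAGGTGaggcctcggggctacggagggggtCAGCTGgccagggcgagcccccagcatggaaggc

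The second set is given because peaks of both TGFβ-1 lists overlapped at these sites. Both windows are centred on the LAP-Smad3 peak. The LAP-Smad2 peak covers part of the MXD4 window but starts past the end of the USF2 window, at chr19:35267015. MXD4 (chr4:2269108-2269307) and USF2 (chr19:35266778-35266977) held no CANNTG, so nothing is capitalised.

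MXD4 upstream: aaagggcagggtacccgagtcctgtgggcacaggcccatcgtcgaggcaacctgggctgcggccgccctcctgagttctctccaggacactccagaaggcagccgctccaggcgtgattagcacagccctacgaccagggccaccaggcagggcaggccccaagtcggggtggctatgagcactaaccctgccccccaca
USF2 promoter: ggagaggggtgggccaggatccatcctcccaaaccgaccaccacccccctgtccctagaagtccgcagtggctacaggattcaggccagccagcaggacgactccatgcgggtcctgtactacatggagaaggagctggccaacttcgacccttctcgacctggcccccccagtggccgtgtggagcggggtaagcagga

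The first question was how many bHLH genes had a Smad peak, with a peak counted where it overlapped the gene span widened by 10 kb on each side. After TGFβ-1, LAP-Smad2 peaks lay at 24 of the 52 members (46.2%, Wilson 95% interval 33.3 to 59.5) and LAP-Smad3 peaks at 30 (57.7%, 44.2 to 70.1). Of all protein-coding genes, 55.9% had a LAP-Smad2 peak and 74.3% a LAP-Smad3 peak within the same distance. The bHLH genes are short, with a median span of 5.46 kb against 27.5 kb over all protein-coding genes, and a longer gene meets more peaks. Protein-coding genes of like span, taken in 20 bins of span, would give 24.8 and 33.7 members with a peak. The observed counts were 0.967 and 0.889 times these, and both lay within counting error of them. Genes matched on the GC content of the promoter in place of span, a match added after the files had been seen, would give 30.2 and 39.5 members. The observed counts were 0.796 and 0.760 times these, and for LAP-Smad3 the count lay below them by more than counting error. The intervals given here cover counting error only and describe these lists, not the conditions.

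The untreated lists reached few of the members. The library labelled LAP-Smad2 untreated had a peak at 6 (11.5%, 5.40 to 23.0) and the library labelled LAP-Smad3 untreated at 5 (9.62%, 4.18 to 20.6), against 22% and 9.14% of all protein-coding genes and 8.95 and 4.14 members from genes of like span. HES4, ASCL4, TCF12, TCF4, MITF and HEY2 were the 6, and NEUROG3, MAX, USF2, MITF and TFEB the 5. MITF alone was in both. At 4 of the 6 (TCF12, TCF4, MITF and HEY2) every peak of the library labelled LAP-Smad2 untreated lay on a window with a repeated 24-mer, that is, 24 bases found at least 100 times in hg38.

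Promoter peaks, within 3 kb of any annotated transcription start site (TSS) of the gene, were counted apart. They were found at 16 members for LAP-Smad2 with TGFβ-1 (30.8%, 19.9 to 44.3, against 35.4% of all protein-coding genes) and at 14 for LAP-Smad3 with TGFβ-1 (26.9%, 16.8 to 40.3, against 40.2%). Genes of like span would give 15.4 and 18.5. Those of like promoter GC would give 19.9 and 21.9, and the LAP-Smad3 count lay below the latter by more than counting error. For LAP-Smad3 the share over all protein-coding genes lay at the upper end of the members' interval, and the members' count was 0.755 times that from genes of like span. Without treatment 3 members had a promoter peak with the LAP-Smad2 label (5.66% of all protein-coding genes) and 5 with the LAP-Smad3 label (4.9%), and all 7 peaks of the latter at members were promoter peaks.

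**Figure D1:**
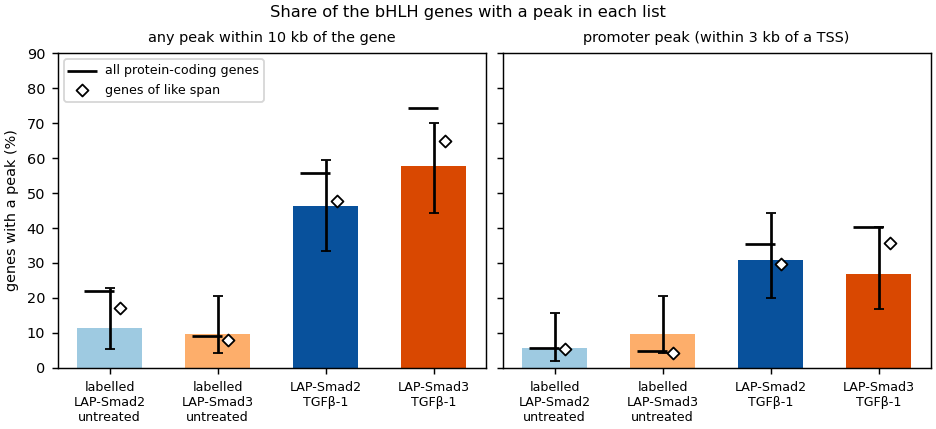
Bars show the percentage of the 52 bHLH genes with a peak in each of the 4 lists, at left for any peak within 10 kb and at right for promoter peaks, with Wilson 95% intervals for counting error. Black lines give all protein-coding genes and diamonds the share from genes of like span, which for LAP-Smad2 with TGFβ-1 lay at 24.8 of 52 genes beside the 24 observed.

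LAP-Smad3 reached 6 more members than LAP-Smad2 after TGFβ-1, but its list was longer. When it was cut to the 26828 peaks with the highest −log10 q, as many as the LAP-Smad2 list holds, it reached 22 members, 2 fewer than LAP-Smad2, and 7 promoters in place of 14. The 22 members were 1.06 times the count from genes of like span with the same cut, and no such count was made for the 7 promoters. The order of both Smads over this gene family thus turned with this cut. It kept only the highest-scoring LAP-Smad3 peaks, whereas the LAP-Smad2 list was whole.

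Both TGFβ-1 lists had a peak at 17 members (47% of all protein-coding genes had one in both), where genes of like span would give 19.3. A further 7 were reached by LAP-Smad2 alone (NEUROG1, ATOH1, OLIG1, PTF1A, HES1, HEYL and MXD1), which is 13.5% against 8.88% of all protein-coding genes and 5.52 members from genes of like span, and 13 by LAP-Smad3 alone (TCF3, ASCL2, ASCL3, NEUROD2, HAND2, LYL1, HES2, HES4, HES5, MAX, MXI1, TFE3 and TFEC), which is 25.0% against 27.3% and 14.4 members. A promoter peak in both lists was found at 6 members, ATOH8, MXD3, MNT, USF2, TFEB and MITF, against 18.2% of all protein-coding genes and 7.37 members from genes of like span. The remaining 15 members (28.8%) had a peak in neither TGFβ-1 list, as did 16.8% of all protein-coding genes, and genes of like span would give 12.7. ASCL4 was among these 15 and had a peak only in the library labelled LAP-Smad2 untreated.

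No list had a peak within 10 kb of the other 14 (26.9%, against 15.6% of all protein-coding genes and 11.9 members from genes of like span): the 4 myogenic genes MYOD1, MYF5, MYF6 and MYOG, the neuronal genes NEUROD1, NEUROD4, NEUROD6 and ATOH7, the cardiac gene HAND1, the blood lineage genes TAL1 and TAL2, and HES6, HEY1 and BHLHE41. Genes of the span of the myogenic group would give 1.56 of 4 members with a LAP-Smad2 peak and 2.21 with a LAP-Smad3 peak.

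The number of peaks per gene was uneven. The lists held 8, 7, 44 and 91 peaks at members, in the order given above, over 2.92 Mb of widened gene spans. This is 15.1 peaks per Mb for LAP-Smad2 and 31.2 for LAP-Smad3 with TGFβ-1, against 11.0 and 25.5 per Mb over the widened spans of all protein-coding genes. These densities are not matched for span, and the 10 kb flanks are a larger part of the widened span of a short gene. Counted per gene, the members had a mean of 0.846 LAP-Smad2 and 1.75 LAP-Smad3 peaks, against 1.13 and 2.54 over all protein-coding genes. TFEB, ATOH8 and TCF3 held 44 of the 91 LAP-Smad3 peaks (48.4%), and TFEB, ATOH8 and ASCL5 held 15 of the 44 LAP-Smad2 peaks (34.1%), with MXD1 and MITF level with ASCL5 at 3. Without TFEB the densities were 12.7 and 24.6 per Mb, so that for LAP-Smad3 the density of the remaining members was below that of all protein-coding genes.

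**Figure D2:**
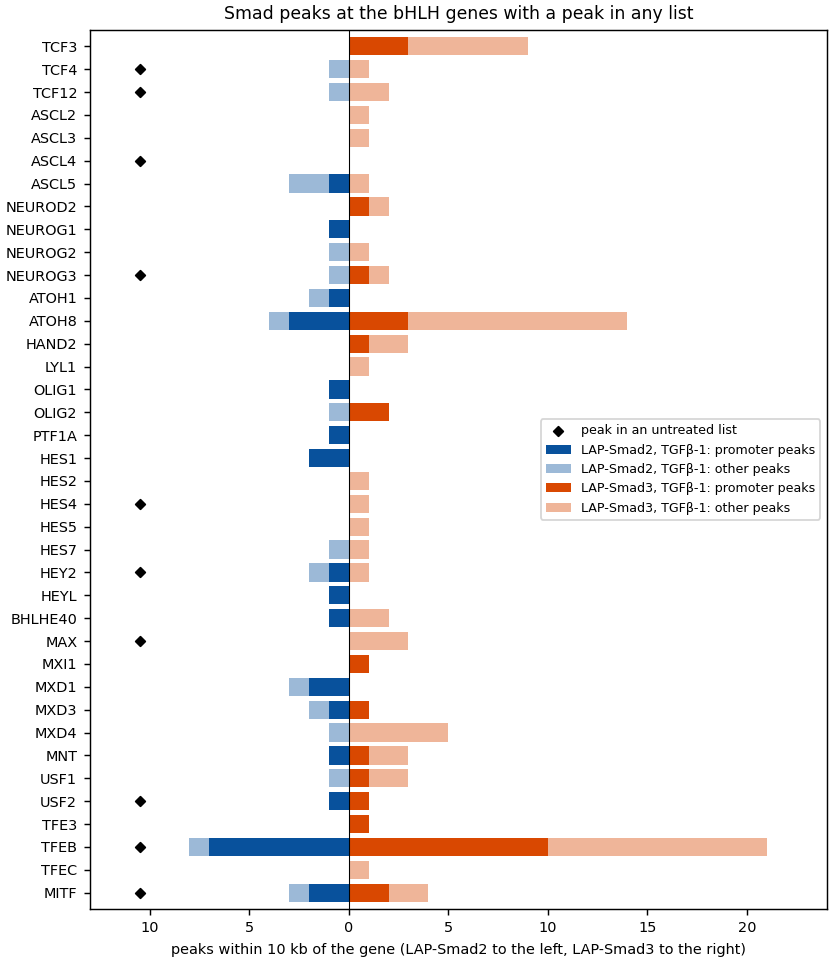
Peaks within 10 kb of each bHLH gene with a peak in any list, LAP-Smad2 with TGFβ-1 to the left and LAP-Smad3 with TGFβ-1 to the right, with promoter peaks in full colour and other peaks in pale colour. Diamonds mark genes with a peak in an untreated list. TFEB stands out in both directions with 8 and 21 peaks, ATOH8 with 4 and 14, and TCF3 had 9 to the right and none to the left.

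Among the MiT/TFE factors, which control lysosome and pigment cell genes, TFEB had the most peaks of all members. TFEB (ENSG00000112561.19, chr6:41683978-41736259, - strand, 52.3 kb, 16 annotated TSSs) had 8 peaks of LAP-Smad2 and 21 of LAP-Smad3 with TGFβ-1, 3 peaks in the library labelled LAP-Smad3 untreated and none in the library labelled LAP-Smad2 untreated. Genes of like span averaged 1.10 and 2.46 peaks in the TGFβ-1 lists, and 99.7% of them had fewer LAP-Smad3 peaks than TFEB. Over all protein-coding genes, 159 had at least 8 LAP-Smad2 peaks and 116 at least 21 LAP-Smad3 peaks, TFEB included. The surroundings of TFEB were rich in peaks too. The 1 Mb on each side held 43.5 LAP-Smad2 and 73.5 LAP-Smad3 peaks per Mb, while the widened span of TFEB held 110.7 and 290.5 per Mb.

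At TFEB, 7 of 8 LAP-Smad2 peaks and 10 of 21 LAP-Smad3 peaks were promoter peaks, and the others of LAP-Smad3 lay in introns (6), downstream (4) and upstream (1). The fold enrichment over local background ran from 2.49 to 3.89 for LAP-Smad2 and from 3.40 to 6.99 for LAP-Smad3, on scales that are not common to both lists. Within their own lists the TFEB peaks spread over nearly the whole range, with the lowest LAP-Smad3 peak at or above 1.68% of the list and the highest, the downstream window shown above, at or above 95.4%. The promoter window shown above had a fold enrichment of 6.70 and stood at or above 92.0% of the list. Peaks of 3 lists met at 1 TFEB promoter (chr6:41723462-41724034): the LAP-Smad3 peak was centred 40 bp upstream of the nearest TSS, and the LAP-Smad2 peak and that of the library labelled LAP-Smad3 untreated 118 and 103 bp downstream of it. Sites called in 3 lists numbered 4 at these genes, and this was the one without a repeated 24-mer, the others being at MITF, TCF4 and HEY2. All 3 untreated TFEB peaks overlapped a LAP-Smad2 peak with TGFβ-1, and 1 of them a LAP-Smad3 peak.

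MITF, the melanocyte member of the group (ENSG00000187098.18, chr3:69739456-69968336, + strand, 229 kb, 19 TSSs), was the one gene with a peak in every list, with 1 and 1 untreated peaks, 3 LAP-Smad2 peaks and 4 LAP-Smad3 peaks. At a site 2186 to 2212 bp behind an internal TSS, the library labelled LAP-Smad2 untreated and both TGFβ-1 lists had a peak on repeated sequence. The first promoter was different: the library labelled LAP-Smad3 untreated and LAP-Smad2 with TGFβ-1 had overlapping peaks centred 401 and 307 bp downstream of the TSS, on windows of 74% and 72% GC without a repeat, and LAP-Smad3 with TGFβ-1 had its own peak at 1276 bp. Of the 4 LAP-Smad3 peaks at MITF, 3 lay on repeated windows. TFE3, a known Smad3 partner, had 1 LAP-Smad3 promoter peak, and TFEC had 1 intronic LAP-Smad3 peak on a repeated window; neither had a LAP-Smad2 peak.

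ATOH8, an atonal-type factor that is known to respond to BMP signals (ENSG00000168874.13, chr2:85751344-85791383, + strand, 40.04 kb), had 4 peaks of LAP-Smad2 and 14 of LAP-Smad3 with TGFβ-1 and none without it. Genes of like span averaged 1.07 and 2.29, and 98.9% of them had fewer LAP-Smad3 peaks. With the shortened LAP-Smad3 list 4 of the 14 peaks were left, as many as LAP-Smad2 had, whereas TFEB kept 14 of its 21. None of the 4 LAP-Smad2 peaks of ATOH8 overlapped a LAP-Smad3 peak, where 24.5% of the whole LAP-Smad2 list did. The LAP-Smad2 peaks lay near the gene start, 3 of them at promoters, plus the upstream window shown above at 9404 bp before the nearest TSS, which had a fold enrichment of 5.30 and stood at or above 93.5% of its list. The LAP-Smad3 peaks lay mainly in the body and behind the gene, with 3 at promoters, 7 in introns, 1 in an exon and 3 downstream. The flanks of 1 Mb held 20.5 LAP-Smad2 and 30.0 LAP-Smad3 peaks per Mb, and the widened gene 66.6 and 233 per Mb.

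The other neurogenic and atonal genes had fewer peaks. NEUROG3, which specifies endocrine cells of the pancreas, had a peak in 3 lists at 4 separate positions: the library labelled LAP-Smad3 untreated at 11 bp upstream of its TSS, LAP-Smad3 with TGFβ-1 at 290 bp downstream of it and at 5212 bp upstream, and LAP-Smad2 with TGFβ-1 at 4552 bp upstream. None of the 4 overlapped another. NEUROG2 had 1 peak of each TGFβ-1 list, on opposite sides of the gene, and its LAP-Smad3 peak had a fold enrichment of 7.69 and stood at or above 93.6% of the list. NEUROG1 had 1 LAP-Smad2 promoter peak, ATOH1 had 2 LAP-Smad2 peaks, and NEUROD2 had 2 LAP-Smad3 peaks, of which the promoter peak lay on a repeated window.

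The E proteins, the common partners of tissue-restricted bHLH factors, differed from each other. TCF3 (ENSG00000071564.19, chr19:1609291-1652615, - strand, 43.3 kb), which encodes E12 and E47, had 9 LAP-Smad3 peaks after TGFβ-1 and no peak in the other 3 lists. Genes of like span averaged 2.29 LAP-Smad3 peaks, and 1034 protein-coding genes had as many as TCF3 or more. Of the 9 peaks 3 were at promoters, 4 in introns, 1 in an exon and 1 downstream, with fold enrichment between 4.33 and 6.10. The surrounding 1 Mb on each side held 68.5 LAP-Smad3 and 18.5 LAP-Smad2 peaks per Mb. With the shortened LAP-Smad3 list 4 of the 9 peaks at TCF3 were left. The intronic window shown above carried 3 E-boxes, of which 1 read CACGTG and 1 CAGCTG.

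TCF4 and TCF12 are far longer than TCF3, at 443 kb and 381 kb, but had few peaks. TCF4 had 1 peak in each TGFβ-1 list and 2 in the library labelled LAP-Smad2 untreated, all on repeated windows, and 3 of these 4 met at 1 intronic site. Genes of like span averaged 2.76 LAP-Smad2 and 7.60 LAP-Smad3 peaks. TCF12 had 2 LAP-Smad3 peaks and 1 peak in the library labelled LAP-Smad2 untreated, all intronic and on repeated windows, and 1 LAP-Smad2 peak downstream that held no repeat. Windows of 4% GC carried 2 of these untreated peaks, 1 at TCF4 and 1 at TCF12.

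Of the achaete-scute genes, ASCL5 (chr1:201113943-201127184) had 3 LAP-Smad2 peaks, 1 at the promoter 718 bp before the TSS and 2 in exons, with fold enrichment between 3.47 and 4.58. The exonic pair also lay within 3 kb of a TSS of the neighbouring calcium channel gene CACNA1S, so the peaks cannot be given to one gene. LAP-Smad3 had 1 peak 3' of ASCL5, low in its list. ASCL2, an intestinal stem cell factor, had 1 LAP-Smad3 peak 3772 bp behind its TSS, with a fold enrichment of 6.07. ASCL3 had 1 intronic LAP-Smad3 peak on a window whose most common 24-mer occurs 270501 times. ASCL4 had 1 peak, in the library labelled LAP-Smad2 untreated, 567 bp behind its TSS.

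The MAX network competes for E-boxes: MAX is the shared partner, and the MXD proteins, MXI1 and MNT form repressive pairs with it. MAX had 3 LAP-Smad3 peaks in its introns and an exon. An intronic one lay on a repeated window, and another within 3 kb of a TSS of the neighbour FNTB. MAX also had a promoter peak of the library labelled LAP-Smad3 untreated at 271 bp upstream of the TSS, but no LAP-Smad2 peak with TGFβ-1. MXD1 had 3 LAP-Smad2 peaks, 2 at the promoter at 698 bp before and 170 bp behind the nearest TSS, and no LAP-Smad3 peak. MXD4 showed the opposite balance with 1 LAP-Smad2 and 5 LAP-Smad3 peaks, 4 of the latter upstream of the gene. At the MXD4 site shown above both Smads met, 7099 bp before the TSS for LAP-Smad3, and within 3 kb of a TSS of the neighbour ZFYVE28, with the LAP-Smad3 peak at or above 94.4% of its list and the LAP-Smad2 peak at or above 3.75% of its own. MXD3 had 2 LAP-Smad2 peaks and 1 LAP-Smad3 peak, with 1 promoter peak of each. The LAP-Smad3 promoter peak and the other LAP-Smad2 peak also lay within 3 kb of a TSS of the neighbours PRELID1 and RAB24. MNT had 1 LAP-Smad2 promoter peak 129 bp before a TSS and 3 LAP-Smad3 peaks, of which the promoter peak lay at another TSS. MXI1 had 1 LAP-Smad3 promoter peak, 95 bp behind the TSS.

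The USF genes encode ubiquitous activators that bind CACGTG. USF2 (chr19:35268962-35279821) had 1 peak each in the library labelled LAP-Smad3 untreated and in both TGFβ-1 lists, all upstream of its TSS, where the neighbouring receptor gene LSR also has a TSS within 3 kb. The LAP-Smad2 and LAP-Smad3 peaks, centred 1797 and 2084 bp upstream, overlapped each other, and the untreated peak at 1113 bp overlapped neither. USF1 had 1 LAP-Smad2 and 3 LAP-Smad3 peaks. The pair that overlapped, behind the gene, lay on repeated windows, and the LAP-Smad3 promoter peak did not.

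The HES and HEY repressors had 6 LAP-Smad2 and 5 LAP-Smad3 peaks over 9 genes. These peaks lay at 4 and 5 of the genes, where genes of like span would give 3.83 and 5.33. HES1, the main Notch effector, had 2 LAP-Smad2 promoter peaks, at 1445 bp before and 1571 bp behind its TSS, and none of LAP-Smad3. HEYL had 1 LAP-Smad2 promoter peak, and HES2 and HES5 1 LAP-Smad3 peak each. No LAP-Smad3 peak lay at a promoter of this group, against 40.2% of all protein-coding genes with one. LAP-Smad2 promoter peaks lay at 3 of the 9 genes, against 35.4%. Promoter counts from genes of like span were not made for this group. HES7, a gene of the segmentation clock, had overlapping peaks of both Smads 6084 and 6103 bp behind its TSS and within 3 kb of a TSS of ALOXE3, and the LAP-Smad3 peak, with a fold enrichment of 8.31, stood at or above 97.5% of its list, the highest of all peaks at members. HEY2 had a LAP-Smad2 promoter peak at 397 bp before the TSS and, behind the gene, a repeated site with peaks in 3 lists. HES4 had 2 peaks in the library labelled LAP-Smad2 untreated, 1 of them at its promoter and within 3 kb of a TSS of ISG15, and 1 LAP-Smad3 peak on the repeated site that the other untreated peak had too.

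Of the remaining groups, BHLHE40, a repressor known to respond to hypoxia and TGFβ, had 1 LAP-Smad2 promoter peak 276 bp behind the TSS and 2 LAP-Smad3 peaks 5878 and 6833 bp behind it. OLIG1 and PTF1A had 1 LAP-Smad2 promoter peak each. OLIG2 had 1 LAP-Smad2 peak upstream and 2 LAP-Smad3 promoter peaks. HAND2 had 3 LAP-Smad3 peaks, 1 at the promoter, and LYL1 had 1 LAP-Smad3 peak downstream. Over all members, 4 of the 44 LAP-Smad2 peaks with TGFβ-1 and 10 of the 91 LAP-Smad3 peaks stood at or above 90% of their list. The median peak at members stood at or above 36.9% of the LAP-Smad2 list and 61.5% of the LAP-Smad3 list.

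**Figure D3:**
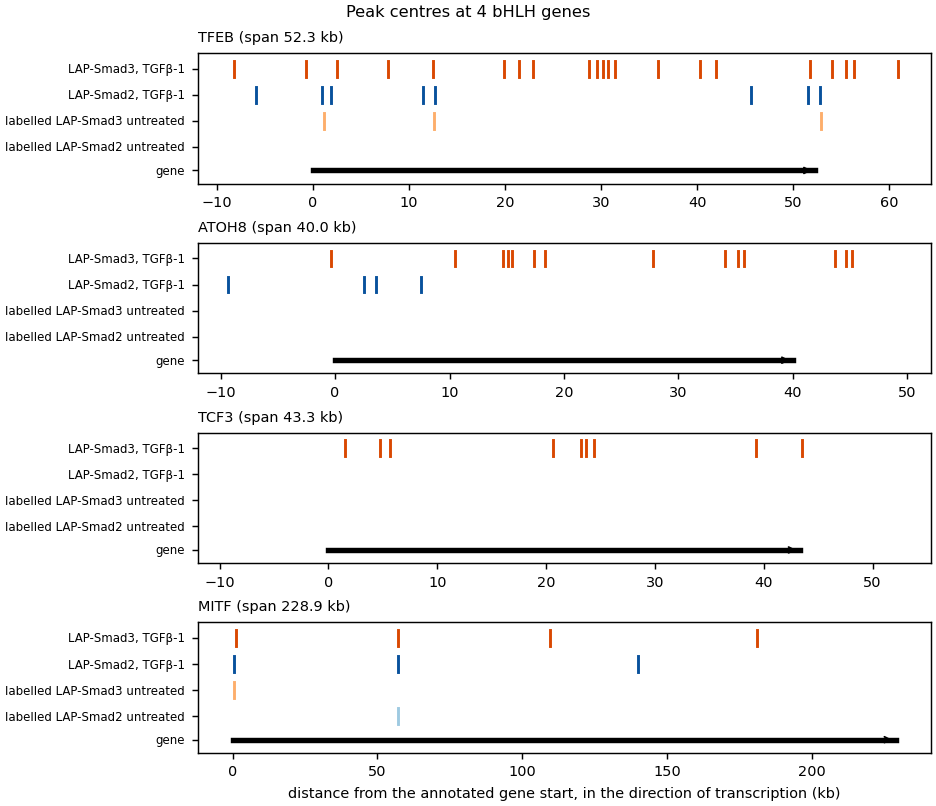
Peak centres of the 4 lists at TFEB, ATOH8, TCF3 and MITF, against the distance in kb from the annotated gene start in the direction of transcription, with the gene as a black bar. LAP-Smad3 marks run along the whole of TFEB and the body of ATOH8, LAP-Smad2 marks at ATOH8 lie within 10 kb of its start, and at TCF3 LAP-Smad3 alone has marks.

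The position of the peaks relative to the genes was compared next. LAP-Smad2 peaks with TGFβ-1 at members were promoter peaks in 27 of 44 cases (61.4%) and LAP-Smad3 peaks in 29 of 91 (31.9%). Over all protein-coding genes, the peaks within 10 kb of a gene were at its own promoter in 41.3% of cases for LAP-Smad2 and in 28.2% for LAP-Smad3, counted once for each gene. With a TSS of any gene counted, 34 of the 44 (77.3%) and 45 of the 91 (49.5%) lay within 3 kb of one, against 42.5% and 32.85% of the whole lists. Peaks at members were taken within 10 kb of a gene, whereas 62.0% and 61.7% of the whole lists lay that near a protein-coding gene. These shares are therefore not like for like. The LAP-Smad3 share at the members' own promoters was close to that over all genes, and the LAP-Smad2 share was above it. This comparison was not matched for span, and TFEB held 7 of the 27 LAP-Smad2 promoter peaks. LAP-Smad3 peaks lay in introns in 26 cases and downstream in 22, where LAP-Smad2 had 2 and 7. The median distance to the nearest TSS of the gene was 1654 bp for LAP-Smad2 and 5237 bp for LAP-Smad3. Some of the peaks outside the members' promoters were near other genes: for LAP-Smad2 7 of 17 such peaks and for LAP-Smad3 16 of 62 lay within 3 kb of a TSS of another gene.

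Peaks of both Smads seldom met at the bHLH genes, as in the whole lists. Of the 44 LAP-Smad2 peaks with TGFβ-1, 9 shared at least 1 bp with LAP-Smad3 (20.5%, 11.2 to 34.5), against 24.5% of the whole LAP-Smad2 list. Of the 91 LAP-Smad3 peaks, 9 overlapped a LAP-Smad2 peak (9.89%, 5.29 to 17.7), against 10.6% of the whole list. The share of overlapping peaks at these genes was thus close to that of the lists. When peaks that touch were joined, the 4 lists made 133 sites at members, of which 120 were in 1 list, 9 in 2 and 4 in 3, and no site was in all lists. The largest classes were 81 sites of LAP-Smad3 with TGFβ-1 alone and 32 of LAP-Smad2 with TGFβ-1 alone. Joined sites of the whole lists are not given, so these counts have no share over all sites beside them.

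The base composition of the 200 bp windows differed between the Smads at these genes. LAP-Smad2 windows with TGFβ-1 had a mean GC content of 68.3% ± 5.27 (SD over 44 windows) and LAP-Smad3 windows 60.2% ± 4.81 (SD over 91 windows), against 63.8% and 58.5% over the whole lists and 43.6% over windows that tile the widened gene spans. Peaks within 10 kb of protein-coding genes gave 66.6% and 58.8%, and all promoter peaks of the lists 68.2% and 59.8%. The values at members were thus close to those of all promoter peaks. Promoter peaks of the members gave 68.7% and 60.2%, and other peaks 67.8% and 60.2%, so the Smads differed by about as much in either class. At all 17 members with peaks in both TGFβ-1 lists the mean GC content was higher in the LAP-Smad2 windows. The difference ran from 0.5 percentage points at HES7 to 17.0 at OLIG2, where LAP-Smad2 had 1 window, with a median of 7.5. Genes are not replicates of the conditions, and the whole lists differed in the same direction. At TFEB the means were 68.1% and 61.5%, and at ATOH8 65.4% and 58.5%. Overlapping peaks at HES7, TCF4, USF1, USF2, MXD4, MITF, HEY2 and TFEB share part of their bases.

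**Figure D4:**
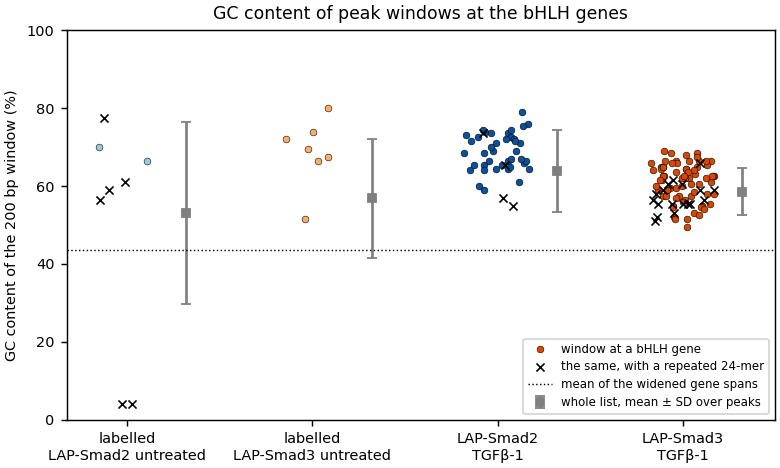
GC content in percent of each 200 bp peak window at the bHLH genes, by list, with crosses for windows that hold a repeated 24-mer. Grey squares with bars give the mean ± SD over all peaks of the list and the dotted line the mean of 43.6% over the widened gene spans. LAP-Smad2 windows with TGFβ-1 centre on 68.3% and LAP-Smad3 windows on 60.2%, and 2 windows of the library labelled LAP-Smad2 untreated lie at 4%.

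Repeated sequence in the peaks at bHLH genes was counted next. A repeated 24-mer was present in 4 of 44 LAP-Smad2 windows with TGFβ-1 (9.09%, 3.59 to 21.2) and in 18 of 91 LAP-Smad3 windows (19.8%, 12.9 to 29.1), against 32.9% and 46.6% of peaks within 10 kb of protein-coding genes and 44.5% and 51.7% of the whole lists. Over all promoter peaks of the lists it was 17.7% for LAP-Smad2 and 31.2% for LAP-Smad3. In both TGFβ-1 lists the share at bHLH genes was thus the smaller, though for LAP-Smad2 within counting error of the promoter peaks. Without treatment it was 6 of 8 windows with the LAP-Smad2 label (75.0%, 40.9 to 92.9, against 73.5% of the whole list) and 0 of 7 with the LAP-Smad3 label, which allows a share of up to 35.4% (upper Wilson limit), against 47.8% of the whole list and 8.76% of its promoter peaks. Windows that tile the widened spans of the bHLH genes held one in 20.7%. Reads from such windows can be placed at many positions, and a peak there may belong to another copy. When these windows were left out, 22 members kept a LAP-Smad2 peak and 23 a LAP-Smad3 peak. TCF4 and USF1 dropped out for LAP-Smad2, and ASCL3, HES2, HES4, HEY2, TCF12, TCF4 and TFEC for LAP-Smad3.

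E-boxes were counted in the windows because the proteins of these genes bind them. CANNTG, which reads the same on both strands, was present in 61.4% of LAP-Smad2 and 60.4% of LAP-Smad3 windows with TGFβ-1, against 51.5% and 55.6% of the whole lists and 63.4% of tiling windows. The E protein form CAGCTG was in 11 of 44 LAP-Smad2 windows (25.0%, 14.6 to 39.4) and 17 of 91 LAP-Smad3 windows (18.7%, 12.0 to 27.9), against 15.7% and 14.1% of the whole lists and 7.61% of tiling windows. The intervals of both include the value of the list. TFEB held 8 of the 17 LAP-Smad3 windows with CAGCTG and ATOH8 5, so that 2 genes carried 13 of them. Without TFEB the LAP-Smad3 share was 12.9%.

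The form CACGTG, a subset of CANNTG that was added after the files had been seen, was in 7 of 44 LAP-Smad2 windows (15.9%, 7.93 to 29.4), against 3.13% of the whole list, 3.84% of its promoter peaks and 2.32% of tiling windows. These 7 windows lay at 7 different members, HES1, HES7, MNT, MXD1, OLIG2, TCF12 and TFEB. With windows on the summit the share was 13.6%, and without TFEB 16.7%. LAP-Smad3 windows held it in 5 of 91 cases (5.49%, 2.37 to 12.2, against 3.21% of the list), at ASCL2, HES7, MXD4, OLIG2 and TCF3. The Smad site CAGAC, on either strand, was in 27.3% of LAP-Smad2 and 40.7% of LAP-Smad3 windows (16.3 to 41.8 and 31.1 to 50.9), against 35.0% and 34.5% of the lists. A match of these letters is a description and shows no bound factor.

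For comparison, 43 other bHLH genes and 48 nuclear receptor genes were counted in the same way. Of the other bHLH genes 31 had a LAP-Smad2 and 34 a LAP-Smad3 peak with TGFβ-1, where genes of like span would give 23.6 and 31.2. At promoters the counts were 21 and 21 against 14.8 and 16.7. Of the nuclear receptor genes 35 and 42 had such peaks, against 30.3 and 39.2, and 19 and 22 promoter peaks, against 18.9 and 20.3. Relative to genes of their span, the 52 bHLH genes described here had 0.967 times as many genes with a LAP-Smad2 peak, the other bHLH genes 1.32 times and the nuclear receptor genes 1.16 times, and for LAP-Smad3 the ratios were 0.889, 1.09 and 1.07. At promoters they were 1.04, 1.42 and 1.004 for LAP-Smad2 and 0.755, 1.25 and 1.08 for LAP-Smad3, in the same order. Differences between these lists were not tested.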

How the data were processed

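Per the labels, anti-GFP ChIP-seq was performed in 4 conditions with 1 library each. The reads were single-end. Alignment to hg38 by the authors used Bowtie2. Peak calling by the authors used MACS2 with reads extended to 200 bp and a q-value limit of 0.05, and the submitters' processing notes also name bedtools. The control library, the version of the caller and the filters are not given in the sources used here. The authors deposited 1 peak list per library, with the fold enrichment as a ratio to the local background and each peak's p-value and q-value as −log10 values. These scores were used as deposited, and were compared within a list only. The lists hold no read totals, so depth is unknown beyond a minimum. Intervals are Wilson 95% intervals for counting error.

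Peaks were assigned to GENCODE release 44 genes by an overlap of at least 1 bp with the span widened by 10 kb, and to promoters within 3 kb of any TSS, with pandas 2.3.3, numpy 2.4.6, numba 0.67.0 and pysam 0.24.0 under Python 3.11.15. Genes of like span were taken in 20 bins of span over 20033 protein-coding genes, and the share with a peak in each bin was summed over the members. Sequence windows of 200 bp came from hg38. The occurrences of every 24-mer, both strands, were counted over hg38. Overlap counts, ratios to genes of like span, peak sharing and motif matching were tested on simulated data or short strings, and 9 of 9 checks passed. Windowing and promoter assignment were not among the checks. No test between conditions was run.

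The members and the lists were chosen with earlier results of these data known. Described with full values were members with a promoter peak in both TGFβ-1 lists, the 5 members with most peaks in each TGFβ-1 list, the E protein and achaete-scute genes and members with peaks in at least 3 lists, and every other member was given by its counts. Alternatives were a stricter q-value of 0.01, summits, other spans and promoter distances, protein-coding TSSs alone, equal list length, other gene bins and other definitions of overlap and window. The 24-mer measure, CACGTG, promoter GC bins and the removal of TFEB or of repeated windows were added after the files had been seen.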

Additional observations from a re-analysis of the deposited data

How the results depend on the processing

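Of 80 alternative values of the main results, 67 stayed within 1.5 times the count or within the interval first obtained. The difference in members reached, LAP-Smad3 minus LAP-Smad2 after TGFβ-1, was 6 and turned to -2 at equal list length, where LAP-Smad3 had 7 promoters. With spans not widened the members with a peak were 13 for LAP-Smad2 and 16 for LAP-Smad3, a difference of 3, and with 50 kb they were 16 and 8 for the untreated LAP-Smad2 and LAP-Smad3 labels and 41 and 46 after TGFβ-1. Within 1 kb of a TSS, 1 member had a promoter peak with the untreated LAP-Smad2 label and 8 with LAP-Smad3 after TGFβ-1. A mutual overlap of 50% left 4.55% of LAP-Smad2 peaks shared. Without repeated windows, 2 members kept a peak of the library labelled LAP-Smad2 untreated. Why these values moved was not tested. The ratio to genes of like span ran from 0.805 to 1.05 for LAP-Smad2 and from 0.803 to 1.06 for LAP-Smad3. With genes of like promoter GC in place of like span, it was 0.796 for LAP-Smad2 and 0.760 for LAP-Smad3. No paired analysis was possible because each condition has 1 library. With 1 library per condition and unknown depth, a missing peak does not show absent binding.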
